A study of Mus musculus with 4 samples.

Results

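Protocadherins are cadherin-like adhesion proteins of the cell surface, and the loci described here are the rows of the deposited table whose symbol, or any symbol of a joined entry, starts with Pcdh. They are 40 of 28168 loci and carry 71 distinct symbols. Of these loci, 27 belong to the clustered genes, named alpha, beta and gamma, and 13 to the non-clustered genes. RNA was sequenced from mature olfactory sensory neurons sorted by fluorescence from the olfactory epithelium of mice, in 2 libraries of the transgenic line Nd1 and 2 of control mice. All 4 libraries came from mice with OMP-IRES-GFP+/-, a reporter at the Omp gene. Both Nd1 libraries had the genotype Nd1+/- with OMP-IRES-tTA+/-, in which the activator tTA is placed at Omp, a gene of mature olfactory neurons. The control of replicate 1 was Nd1+/- with OMP-IRES-tTA-/-, and the control of replicate 2 was Nd1-/- with OMP-IRES-tTA+/-. In both groups replicate 1 came from mice of 212 days and replicate 2 from mice of 87 days. The series title gives the transgenic mice as carrying double-stranded RNA encoded in the genome, and the design text speaks of neurodegeneration.

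The table holds 1 pooled FPKM value per group (fragments scaled by transcript length and by library size), so control genotype, age and replicate cannot be told apart and no spread between libraries can be given. Each FPKM value printed here is such a pooled value. The labels do not give the number of mice behind a library, so the spread behind the authors' q values may in part be technical. Every call is the authors', at q under 0.05 from Cuffdiff in their deposited table, and rose and fell are used only of loci that passed it. The sorted cells carried the defining markers of their label, since Omp, which encodes the olfactory marker protein, had 4087 FPKM in control and 605 in Nd1, although all 5 mature neuron markers fell and 8 of 10 tested immature neuron markers rose in the authors' deposited table. Over all tested loci 15.1% rose and 19.2% fell in that table. In such bulk RNA, fewer cells of a type and less RNA per cell cannot be told apart.

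The clustered genes lie side by side on a single chromosome. In the alpha and gamma clusters each variable exon has its own promoter and is spliced to constant exons shared by the cluster, whereas each beta gene is encoded by a single exon. A neuron transcribes a small combination of these isoforms, chosen with the help of CTCF and cohesin, and homophilic binding of the proteins lets neurites of the same cell recognise each other. In olfactory sensory neurons the clustered genes are needed for axons to gather properly into glomeruli. The non-clustered genes are scattered in the genome, and most belong to the delta-1 or delta-2 subfamily, which bind homophilically and signal to the cytoskeleton through different cytoplasmic tails.

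The promoters of 5 non-clustered genes are shown because these are the called non-clustered genes that were matched to a promoter window; Pcdh11x, also called, was not matched. Pcdh8 and Pcdh9 were higher in Nd1, and Pcdh10, Pcdh17 and Pcdh19 were lower. Each window runs from 250 bases before to 50 after the annotated start, from RefSeq on GRCm38.p6, 5′ to 3′ on the gene's strand, and capitals mark CCAAT or its reverse complement. The windows lie at chr14:79771263-79771562 (minus strand) for Pcdh8, chr14:93890630-93890929 (minus) for Pcdh9 (the first of its 2 windows), chr3:45378148-45378447 (plus) for Pcdh10, chr14:84443313-84443612 (plus) for Pcdh17 and chrX:133688944-133689243 (minus) for Pcdh19.
Pcdh8: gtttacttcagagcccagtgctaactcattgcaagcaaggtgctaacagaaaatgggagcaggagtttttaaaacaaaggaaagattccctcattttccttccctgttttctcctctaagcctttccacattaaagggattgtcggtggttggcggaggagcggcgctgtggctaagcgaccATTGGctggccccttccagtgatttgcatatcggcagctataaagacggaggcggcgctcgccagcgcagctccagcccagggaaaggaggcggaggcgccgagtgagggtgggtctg
Pcdh9: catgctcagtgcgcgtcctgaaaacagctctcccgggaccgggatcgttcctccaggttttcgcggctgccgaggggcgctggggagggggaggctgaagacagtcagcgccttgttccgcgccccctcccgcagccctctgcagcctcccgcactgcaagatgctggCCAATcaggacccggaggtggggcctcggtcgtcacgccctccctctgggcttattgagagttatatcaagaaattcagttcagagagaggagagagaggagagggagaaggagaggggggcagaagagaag
Pcdh10: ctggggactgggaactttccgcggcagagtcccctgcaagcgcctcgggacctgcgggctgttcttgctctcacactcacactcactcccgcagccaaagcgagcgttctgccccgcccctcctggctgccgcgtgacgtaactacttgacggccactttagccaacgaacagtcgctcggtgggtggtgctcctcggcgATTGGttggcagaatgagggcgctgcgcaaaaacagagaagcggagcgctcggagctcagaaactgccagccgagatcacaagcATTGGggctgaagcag
Pcdh17: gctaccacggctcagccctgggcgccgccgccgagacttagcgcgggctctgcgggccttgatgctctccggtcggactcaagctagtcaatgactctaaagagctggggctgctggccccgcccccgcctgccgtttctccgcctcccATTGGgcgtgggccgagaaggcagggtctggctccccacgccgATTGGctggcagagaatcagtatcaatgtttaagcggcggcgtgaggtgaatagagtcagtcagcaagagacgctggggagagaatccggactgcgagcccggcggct
Pcdh19: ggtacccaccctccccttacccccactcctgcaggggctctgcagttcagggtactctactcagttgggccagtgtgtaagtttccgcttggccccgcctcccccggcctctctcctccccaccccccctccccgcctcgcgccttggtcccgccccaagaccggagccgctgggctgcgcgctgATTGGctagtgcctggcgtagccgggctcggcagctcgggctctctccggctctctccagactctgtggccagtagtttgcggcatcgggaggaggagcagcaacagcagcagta

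Windows were matched for 9 of the 71 symbols, all of them non-clustered genes. Windows on chromosome 18, which holds the clustered genes, Pcdh1 and Pcdh12, were left out of the match. CCAAT, on either strand, was present in 8 of the 9 genes, against 37.4% of all 32544 distinct windows of the same length. This motif was picked after the sequences had been seen. Its first base lay at -68 from the start in Pcdh8, at -82 in Pcdh9, at -50 in Pcdh10, at -101 and -58 in Pcdh17 and at -65 in Pcdh19, with a further match at 35 in Pcdh10. It was thus present alike in genes that rose and in genes that fell. Pcdh8 alone of the 5 had the TATA motif, spelled TATAAA, at -30, which 13.6% of all windows hold. The E-box, spelled CANNTG, which 72.3% of windows hold, was found in Pcdh19 and not in the other 4 of the windows shown. The core of the interferon-stimulated response element, read as GAAA, any 2 bases and GAAA, was in none of the 9 genes' windows and in 3.45% of all windows. The core bound by EBF factors, read as TCCC, any 2 bases and GGGA, and the homeodomain core TAATTA were in none of the 9 and in 0.913% and 5.29% of all windows. All motifs were searched on both strands. The windows of Pcdh17 and Pcdh10 held 26 and 24 CpG dinucleotides, those of Pcdh9 and Pcdh19 held 18 each and that of Pcdh8 held 14, where the median window held 7.

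Across all members, 33 loci were tested, 6 were not tested and 1 failed in the authors' deposited table. Of the 33 tested loci 9 passed (27.3%), beside 34.4% of all 14841 tested loci, with 6 higher and 3 lower in Nd1. The background was 15.1% higher and 19.2% lower, and with odorant receptors left out 30.3% passed, 16.2% higher and 14.1% lower. Clustered and non-clustered loci are set side by side here. Among the clustered loci 3 of 26 tested passed (11.5%), all higher, and among the non-clustered loci 6 of 7 passed (85.7%), 3 in each direction, in the authors' deposited table. These shares are descriptions, and their difference was not tested. All 7 tested non-clustered loci stood above 3.8 FPKM in both groups. The 26 tested clustered loci ranged from 0.36 to 281 FPKM in control, and the 21 beta loci other than Pcdhb1 had a median of 2.64. The part of level in these shares was not tested. With 1 FPKM added to both values before the ratio is taken, which shrinks the ratios of low genes, the median log2 ratio was 0.20 over 25 tested clustered loci averaging 0.5 FPKM or more, 0.033 over the 7 non-clustered loci and -0.060 over all 13727 such loci. The non-clustered median is the value of Pcdh1, which did not pass, with 3 rises above it and 3 falls below. These 7 loci leave out Pcdh7, whose test failed and whose log2 ratio by the same measure was 1.54.

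**Figure D1:**
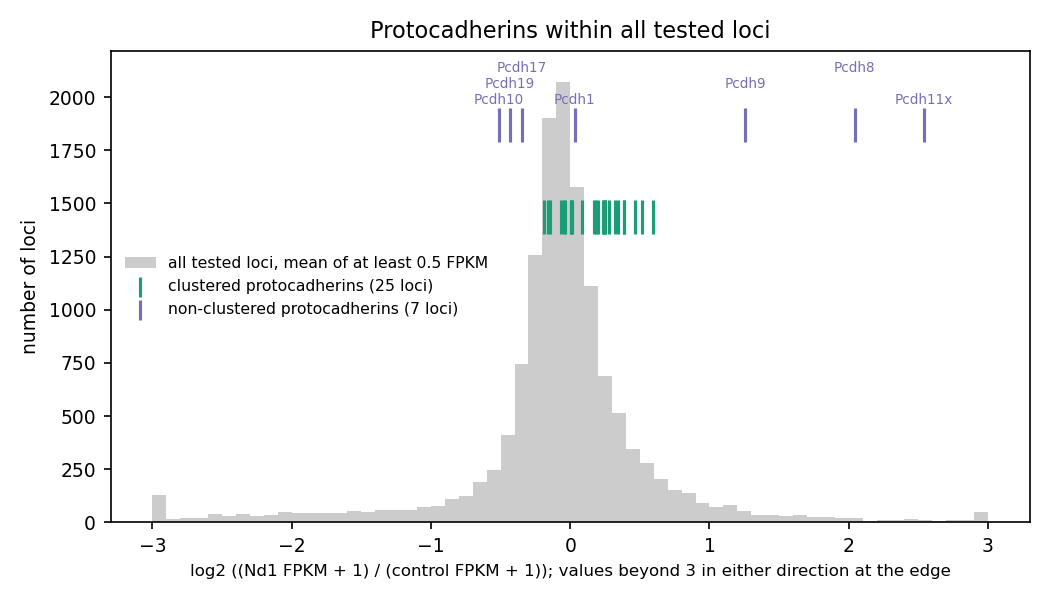
Histogram of the log2 ratio of Nd1 to control, with a pseudocount of 1 FPKM, over the 13727 tested loci averaging 0.5 FPKM or more (bars, number of loci), with a tick for each clustered (green) and non-clustered (purple) protocadherin locus. The 25 clustered ticks lie between -0.19 and 0.59, while the 7 non-clustered ticks reach from -0.51 to 2.54. Pcdh7, whose test failed, has no tick.

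Among the delta-1 genes, Pcdh11x had the steepest rise of any protocadherin. This X-linked adhesion gene (mm9 chromosome X, 117403936 to 118020059) stood at 3.89 FPKM in control and 27.4 FPKM in Nd1. The log2 fold change in the authors' deposited table was 2.82, with q listed as 0, a 7.04-fold higher level that ranked 199th of the 1980 called rises with at least 1 FPKM in a group. In control it was the least abundant of the 8 non-clustered genes above 0.5 FPKM. In Nd1 it stood above Pcdh10, Pcdh17 and Pcdh19.

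Pcdh9, a brain-expressed delta-1 member (mm9 chromosome 14, 93412920 to 94289888), rose from 12.5 to 31.2 FPKM. Its log2 fold change was 1.32, with q listed as 0, in the authors' deposited table. Pcdh7, also called BH-protocadherin (mm9 chromosome 5, 57961323 to 58523479), stood at 16.5 FPKM in control and 49.9 FPKM in Nd1, which is 3.02 times as high. The authors' test failed for that locus, as it did for 616 loci in all, so the difference carries no call and no fold change in their deposited table. Pcdh1 was the most abundant non-clustered gene in control. This gene, whose product also holds epithelial cells together (mm9 chromosome 18, 38349199 to 38369416), had 70.4 FPKM in control and 72.0 FPKM in Nd1, a log2 fold change of 0.034 that did not pass (q = 0.83, the authors' deposited table). Of the 4 delta-1 genes, then, 2 rose, 1 did not pass and 1 has no valid test.

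Among the delta-2 genes, Pcdh8 rose and the other 3 tested genes fell. Pcdh8, known as arcadlin and induced by neuronal activity at synapses (mm9 chromosome 14, 80166582 to 80171119), went from 18.9 to 81.2 FPKM. The log2 fold change in the authors' deposited table was 2.10, with q listed as 0, which ranked 322nd of the 1980 rises. It passed Pcdh1 to become the most abundant non-clustered protocadherin in Nd1. Its share of the summed FPKM of the 13 non-clustered loci was 11.2% in control and 27.5% in Nd1, while that of Pcdh1 was 41.7% and 24.4%. The shares of Pcdh11x (2.30% and 9.27%), Pcdh9 (7.39% and 10.6%) and Pcdh7 (9.79% and 16.9%) were likewise larger in Nd1. The summed FPKM itself was 169 in control and 295 in Nd1.

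The falls were all under 2-fold. Pcdh10, or OL-protocadherin, which recruits the WAVE actin regulators to cell contacts and is found on subsets of olfactory axons (mm9 chromosome 3, 45182320 to 45238501), fell from 18.6 to 12.7 FPKM. The log2 fold change in the authors' deposited table was -0.55 (q = 3.23e-12). Pcdh19, mutated in an epilepsy syndrome of girls (mm9 chromosome X, 130117400 to 130241801), fell from 11.3 to 8.10 FPKM. In the authors' deposited table its log2 fold change was -0.48 (q = 1.8e-06). Pcdh17, which also brings WAVE to contacts between axons (mm9 chromosome 14, 84843370 to 84936867), fell from 16.1 to 12.5 FPKM, and the authors' deposited table gave it a log2 fold change of -0.37 (q = 0.00833). In control Pcdh8, Pcdh10 and Pcdh17 lay close together, between 16.1 and 18.9 FPKM, and in Nd1 Pcdh8 stood far above the other 2. Among 2585 called falls with at least 1 FPKM in a group, those of Pcdh10, Pcdh19 and Pcdh17 ranked 1635th, 1769th and 2046th by fold.

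**Figure D2:**
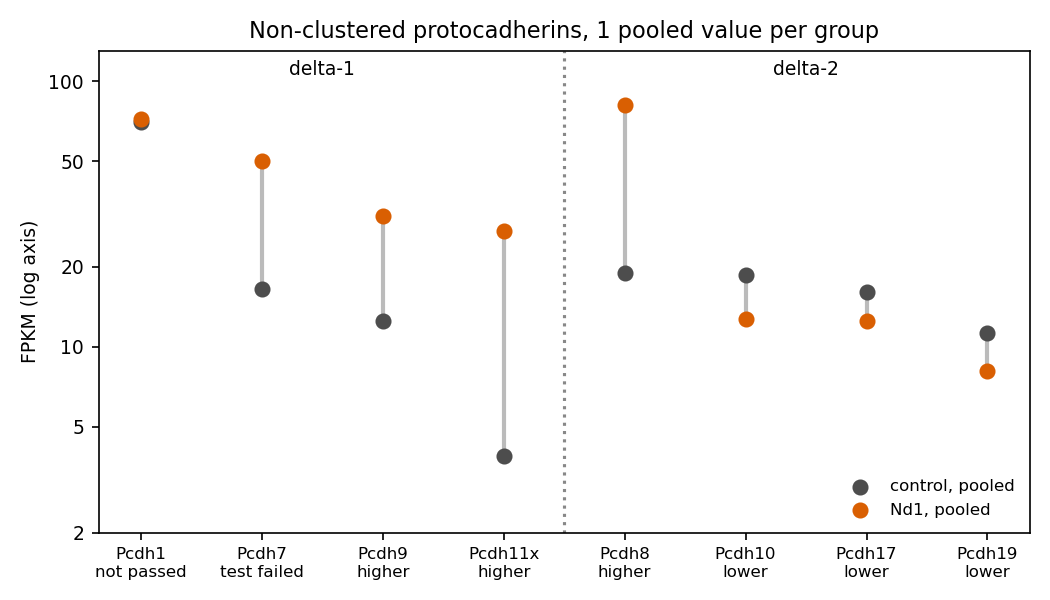
FPKM of the 8 non-clustered protocadherins above 0.5 FPKM in a group (log axis), with the pooled control value in grey, the pooled Nd1 value in orange and the authors' call under each symbol. Pcdh11x (3.89 to 27.4 FPKM) and Pcdh8 (18.9 to 81.2 FPKM) moved farthest, Pcdh1 had 70.4 and 72.0 FPKM, and Pcdh10, Pcdh17 and Pcdh19 were lower in Nd1.

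The remaining 5 non-clustered loci were near 0 and were not tested in the authors' deposited table. Pcdh18, the last delta-2 gene, had 0.058 FPKM in control and 0.070 in Nd1. Pcdh15, a component of the tip links of inner ear hair cells, had 0.15 and 0.13 FPKM, and Pcdh20 had 0.15 and 0.092 FPKM. Pcdh12, a protocadherin of endothelial cells, was listed at 0 in control and at 0.026 FPKM in Nd1. Cdh5, the defining cadherin of endothelium, was likewise at 0.034 and 0.039 FPKM. An additional entry under the symbol Pcdh19 had 0.31 and 0.083 FPKM. Its number in the table places it among the loci of the opposite strand.

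The alpha and gamma genes were reported mainly as a single joined entry. It carries 37 symbols, of which 15 are alpha (12 ordinary variable exons, the 2 C-type exons Pcdhac1 and Pcdhac2, and the readthrough symbol Pcdha4-g) and 22 are gamma (12 of type A, 7 of type B and 3 of type C). Its level was 158 FPKM in control and 226 FPKM in Nd1. The log2 fold change in the authors' deposited table was 0.52, with q listed as 0, a 1.43-fold higher level. In control the entry stood above 98.5% of all tested loci by FPKM. Because the entry pools both clusters and their shared constant exons, the table does not show which isoforms or which cluster moved. Separate low-level entries under the symbols Pcdhga8 (1.55 and 2.23 FPKM, q = 0.183), Pcdha4-g (1.12 and 1.07 FPKM, q = 0.918, with an additional entry at 0.36 and 0.35 FPKM, q = 0.933) missed the threshold in the authors' deposited table. That under Pcdha1 (0.22 and 0.27 FPKM) was not tested.

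Of these 4 separate entries, 3 have numbers in the table's minus-strand run, although alpha and gamma genes lie on the plus strand. On chromosome 18 the loci are numbered by strand, with 457 of 484 loci of known strand (94.4%) on the side of their annotation. The boundary between the runs was placed where this match was best, so the share is a maximum. Whether these entries hold antisense transcripts or misplaced sense reads was not tested, since the sources used here do not state that the libraries keep strand.

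Most beta genes carried no call. In the authors' deposited table all 22 were tested, of which 2 rose, 0 fell and 20 missed the threshold, a share of 9.09% called beside 34.4% of all tested loci. Pcdhb9 rose from 3.81 to 6.25 FPKM, and its log2 fold change was 0.71 in the authors' deposited table (q = 0.00466). Pcdhb15 rose from 1.34 to 2.23 FPKM, and its log2 fold change was 0.74 in the authors' deposited table (q = 0.0314). Just outside the threshold lay Pcdhb8, at 0.73 and 1.25 FPKM (log2 fold change 0.79, q = 0.05004), and Pcdhb16, at 8.47 and 10.8 FPKM (q = 0.0585), both from the authors' deposited table. Further from it were Pcdhb6, at 1.33 and 2.04 FPKM (q = 0.0931), and Pcdhb10, at 0.45 and 0.73 FPKM (q = 0.127), again from the authors' deposited table. Pcdhb6, Pcdhb8, Pcdhb9, Pcdhb10 and Pcdhb15 had the 5 highest ratios of the beta genes, from 1.53 to 1.72, and 4 of these 5 were at or below 1.34 FPKM in control. The 5 loci with lower values in Nd1, none of them called in the authors' deposited table, were Pcdhb1, Pcdhb7 (4.67 and 4.42 FPKM), Pcdhb11 (2.87 and 2.46), Pcdhb19 (4.96 and 4.78) and Pcdhb21 (2.64 and 2.19 FPKM). By sign alone 17 of the 22 beta loci had a higher value in Nd1, beside 6215 of all 14841 tested loci. These genes resemble each other closely in sequence, so how reads common to several of them were assigned is uncertain.

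Pcdhb1 stood apart from its neighbours in level. It had 281 FPKM in control and 254 in Nd1 (q = 0.455, the authors' deposited table), which was 17.9 and 14.01 times the next beta gene. That next gene was Pcdhb17, at 15.7 and 18.2 FPKM. The other 21 beta loci ranged from 0.45 FPKM (Pcdhb10) to 15.7 FPKM in control, with a median of 2.64 FPKM in control and 2.46 in Nd1. Their summed FPKM was 79.3 in control and 92.1 in Nd1, a 1.16-fold higher sum, whereas with Pcdhb1 the sums were 360.2 and 346. The sign of the summed difference therefore rests on Pcdhb1. All 27 clustered loci are listed at the same interval (mm9 chromosome 18, 37089939 to 38001526), so the length over which a single entry was counted cannot be read from the table.

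The levels of the beta genes in control and in Nd1 ran closely together. The Pearson correlation of the log2 FPKM values was 0.97 over the 21 loci other than Pcdhb1, which share libraries and locus. The most abundant of these, Pcdhb17, Pcdhb16 and Pcdhb14 (8.32 and 9.61 FPKM), held the top places in both groups. Along the cluster, taken in the order of the gene numbers, ratios of Nd1 to control were spread unevenly. From Pcdhb2 to Pcdhb10, 8 of 9 loci had a ratio above 1 and the median ratio was 1.43. Over Pcdhb11 to Pcdhb18, 7 of 8 were above 1, with a median of 1.19. The last 4, Pcdhb19 to Pcdhb22, had ratios from 0.83 to 1.01. These runs were chosen after the values had been seen and are given as a description. The loci with the higher ratios tended to be those with the lower levels, with a Spearman correlation of control FPKM with ratio of -0.49 over the 21 loci, in which the control value enters both measures.

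**Figure D3:**
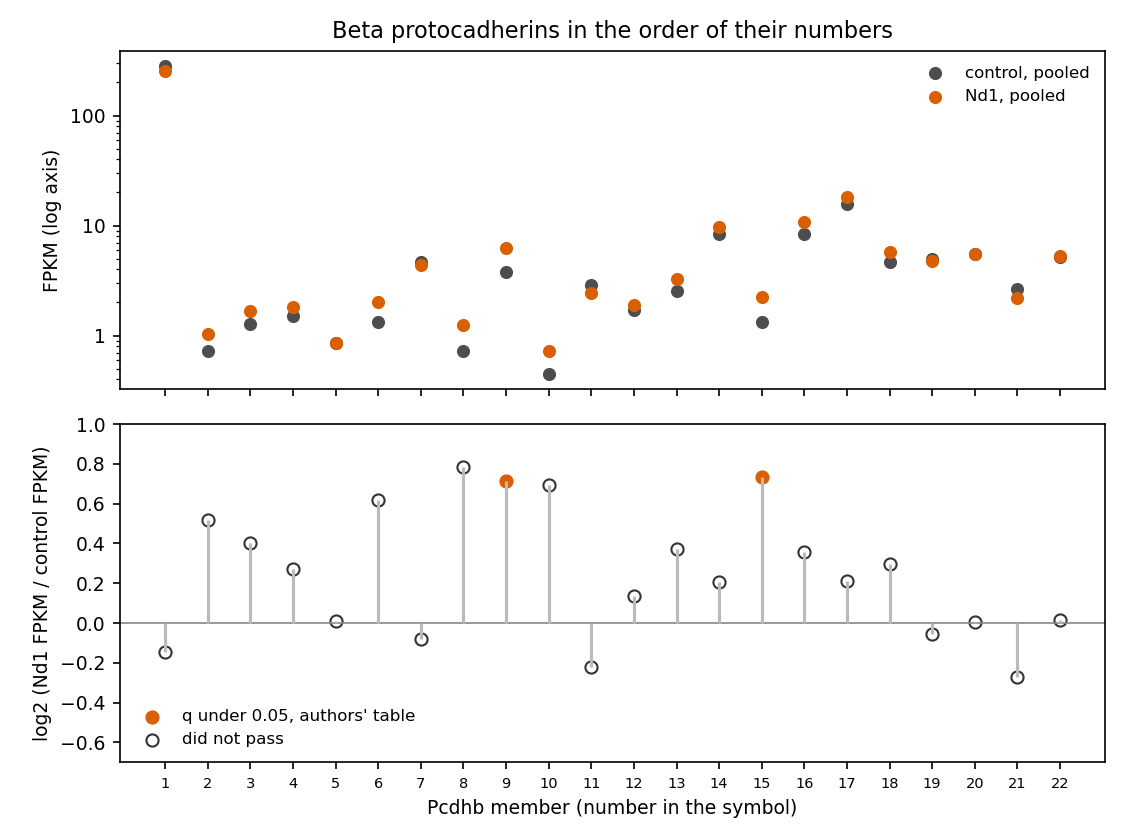
Upper panel, FPKM (log axis) of the 22 beta protocadherins in the order of their numbers, with the pooled control value in grey and the pooled Nd1 value in orange. Lower panel, log2 of the Nd1 to control ratio, filled where q was under 0.05 in the authors' table. Pcdhb1 lies above 250 FPKM in both groups, and Pcdhb9 and Pcdhb15 are the 2 filled points.

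Both other loci listed at the same interval as the clustered genes gave no call. Taf7, a subunit of the general transcription factor TFIID, had 6.51 FPKM in control and 5.48 in Nd1 (q = 0.395, the authors' deposited table). Slc25a2, a mitochondrial ornithine transporter, had 0.16 and 0.11 FPKM and was not tested.

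Regulators of the clustered genes passed at a share near that of all tested loci. Of 35 listed symbols for CTCF, cohesin and the chromatin marks that control promoter choice, 33 were found and 27 were tested. The authors' deposited table shows that 3 rose, 5 fell and 19 missed the threshold, or 29.6% called beside 34.4% of all tested loci. Their median log2 ratio was -0.10. The falls were those of Rest, a repressor of neuronal genes (2.25 to 1.13 FPKM), the methyl-CpG binder Mbd1 (24.7 to 20.7), the DNA methyltransferase Dnmt1 (11.1 to 9.69), the insulator protein Ctcf (39.9 to 35.0) and the histone methyltransferase Setdb1 (11.6 to 10.4 FPKM). Among the rises were those of the DNA dioxygenase Tet3 (19.4 to 28.4 FPKM) and the Setdb1 partner Atf7ip (27.2 to 31.6 FPKM). Dnmt1, Ctcf, Setdb1 and Atf7ip were named after their values were seen. The cohesin subunits Rad21 (71.5 and 65.4 FPKM), Smc1a (38.6 and 37.1 FPKM) and Smc3 (25.9 and 24.2 FPKM), named likewise, did not pass.

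Proteins that act with protocadherins inside the cell, or cut them, were measured through 30 listed genes. The authors' deposited table has 25 of them tested, of which 6 rose, 2 fell and 17 missed the threshold, or 32.0% called beside 34.4% of all tested loci, with a median log2 ratio of 0.024. Marcks, an actin-binding substrate of protein kinase C that lies in the gamma protocadherin pathway, rose from 5.75 to 25.7 FPKM. The kinase Prkca rose from 0.63 to 2.10 FPKM and the Src-family kinase Fyn from 3.503 to 6.04 FPKM. Ptk2b (Pyk2), a kinase held in check by clustered protocadherins, fell from 4.06 to 2.28 FPKM, and its relative Ptk2 (FAK), named after its values were seen, had 13.96 and 15.6 FPKM and did not pass. The list holds 8 tested WAVE complex genes, a group singled out after the values were seen. The authors' deposited table called 2 of them, beside 34.4% of all tested loci. Brk1, also listed and of that complex, had no test. Cyfip2 rose from 81.6 to 127 FPKM and Abi1 fell from 21.98 to 18.8 FPKM, while Nckap1, the subunit that Pcdh10 binds, had 30.2 and 33.4 FPKM and did not pass, nor did Wasf1, Wasf2, Wasf3, Cyfip1 and Abi2.

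Other adhesion genes are given beside the protocadherins. Of 47 other cadherin superfamily genes, 26 were tested, and 11 rose, 6 fell and 9 missed the threshold (65.4% called beside 34.4% of all tested loci, the authors' deposited table), with a median log2 ratio of 0.080 over the 23 averaging 0.5 FPKM or more. The steepest were Cdhr3 (0.031 to 0.92 FPKM), Fat3 (0.025 to 0.46 FPKM), Cdh26 (3.25 to 21.8 FPKM) and Cdh6 (0.18 to 0.91 FPKM). Of 28 symbols listed for olfactory axon adhesion and sorting, which include alternative names of the same genes, 23 were found. Of these 18 were tested, and 8 rose, 8 fell and 2 missed the threshold (88.9% called beside the same 34.4%, the authors' deposited table), with a median of -0.075. The steepest were the contactin Cntn1 (0.98 to 5.996 FPKM), Cntnap2 (0.25 to 1.51), the L1-family gene Chl1 (1.31 to 6.97) and the teneurin Odz1 (0.24 to 1.16 FPKM). No difference between these lists was tested.

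**Figure D4:**
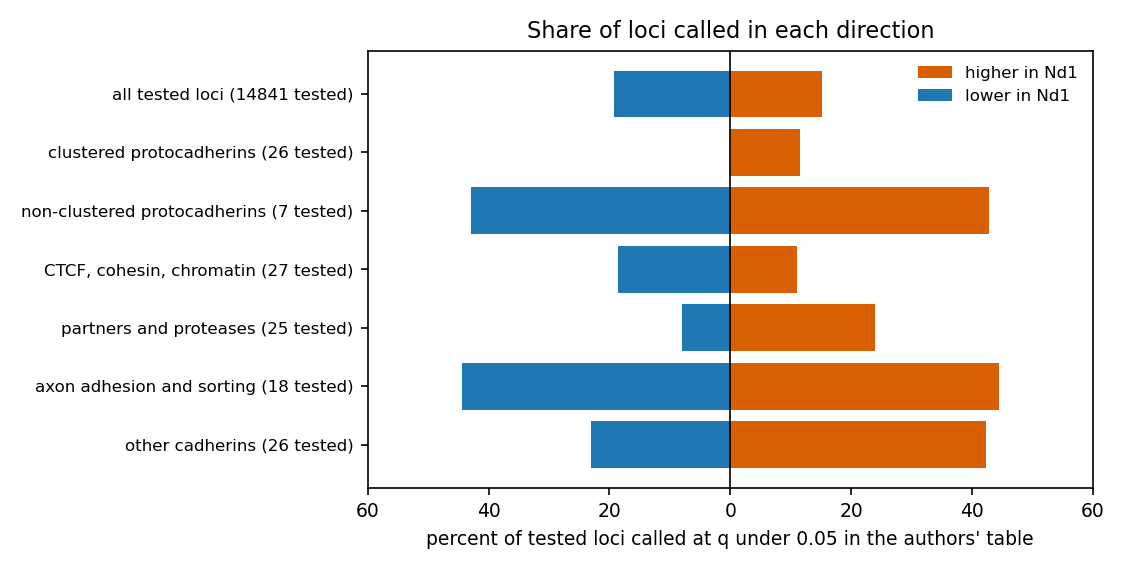
Percent of tested loci called higher (orange, to the right) or lower (blue, to the left) in Nd1 at q under 0.05 in the authors' table, for all tested loci, both protocadherin classes and 4 gene lists, with the number tested in brackets. Clustered protocadherins were called in 11.5% and non-clustered ones in 85.7% of tested loci, beside 34.4% of all tested loci.

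Markers of cell types moved between the groups beside these changes. Of all tested loci 15.1% rose and 19.2% fell in the authors' deposited table. Of 11 immature olfactory neuron markers 10 were tested, and 8 rose and 1 fell in the authors' deposited table, with a summed level of 715 FPKM in control and 1072 in Nd1, while the 5 mature neuron markers summed to 12802 and 4303 FPKM. Of 4 vomeronasal neuron markers 3 rose and 1 fell (163 and 199.7 FPKM summed, the authors' deposited table). Of that sum Gnao1 held 141 and 167 FPKM, while Vmn2r1 had 0.038 and 0.93 FPKM. Summed levels were 326 and 293 FPKM for sustentacular cells, where 3 of 7 tested markers fell in the authors' deposited table. Most of that sum was Sult1d1, which had 254 and 234 FPKM and did not pass. For Bowman gland and respiratory cells the sums were 210.5 and 79.5 FPKM, mostly Bpifa1 (184 and 68.1 FPKM), and 5 of 5 tested markers fell. Horizontal basal markers summed to 12.2 and 6.04 FPKM, and 3 of 3 fell. Neutrophil markers summed to 28.2 and 5.06 FPKM, and 5 of 5 fell. No member of these lists was higher in the authors' deposited table. Neuronal progenitors (1.03 and 1.26 FPKM), ensheathing glia (4.41 and 3.67), fibroblasts (11.4 and 10.3) and T and NK cells (0.45 and 0.21) gave no call, and 2 of the 5 T and NK cell markers were at 0 in each group. Endothelial and mural markers gave 1 rise and 2 falls (10.4 and 7.38 FPKM summed) and macrophage markers 1 fall (1.46 and 1.35 FPKM summed, the authors' deposited table). The part of the shift in neuronal markers in the protocadherin differences was not tested.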

How the data were processed

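Sorted mature olfactory sensory neurons were profiled in 4 libraries of polyadenylated RNA, per the labels' protocols. Bowtie, Cuffdiff 1.3.0 and the build mm9 were used, per the submitters' processing notes. Which annotation and which filters were applied is not given in the sources used here. Per the file headers, the authors deposited FPKM values, 1 per group for 28168 loci, beside their own log2 fold change, p-value and q-value. The depth of each library is unknown, so no intervals or detection floors are given. The number of per-sample columns left unused is 0. The deposited q-values match a Benjamini-Hochberg adjustment of the 14841 tested p-values (to 1%, for 100.0% of loci). Coordinates are the table's, with 1 added to each start, and they bound the listed locus. Windows on GRCm38.p6 were not joined to them by position.

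The planned test on values per library was not possible with pooled values, so the authors' calls at q under 0.05 are reported and no test was run. Log2 ratios used a pseudocount of 1 FPKM and a minimum mean of 0.5 FPKM. A listed symbol with several loci was represented by that of highest mean FPKM, and joined loci stayed out of the lists. Members and lists were chosen with earlier results of these data known. Every Pcdh locus of at least 0.5 FPKM in a group, or called, was to be named or counted, and up to 4 called members of each other list by size of change. A gene of the regulator list is not reported here by name. Strand came from GENCODE M21 by symbol. Scripts (Python 3.11.15, pandas 2.3.3, numpy 2.4.6) were tested on simulated data. Alternatives were another pseudocount, filter, q threshold and scaling, 1 locus per symbol, and changes of at least 2-fold only. Leaving out entries numbered on the opposite strand, and q under 0.01 for the gene lists, were added after the data had been seen.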

Additional observations from a re-analysis of the deposited data

How the results depend on the processing

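No paired analysis was possible because the table holds 1 pooled value per group, and for the same reason no replicate could be left out. Counting only changes of at least 2-fold left 3 protocadherin loci called, 0 clustered and 3 non-clustered, all of them higher, where 9, 3 and 6 were called without that limit. Of all tested loci 16.1% were called with that limit. At q under 0.01, which 27.2% of all tested loci passed, the counts were 8, 2 and 6, and with p-values adjusted again over tested loci of at least 0.5 FPKM mean they were 10, 4 and 6, with all clustered calls higher. With 1 locus per symbol and the joined entry left out they were 8, 2 and 6. Leaving out the entries numbered on the opposite strand could change no count, since none of them was called. The median log2 ratio of the clustered loci was 0.20, and 0.33 after quantile normalization, and between 0.19 and 0.26 under the other alternatives. That of the non-clustered loci stayed between 0.033 and 0.094. It was the value of Pcdh1 each time and never counted Pcdh7, so it does not show how the class as a whole depends on these choices. Quantile normalization moved the median of all loci by 0.065. It reversed the sign of Pcdhb7 to 0.033, of Pcdhb19 to 0.044 and of the Pcdha4-g entry near 1 FPKM to 0.14, and centring on the median locus reversed Pcdhb19 to 0.016 and that Pcdha4-g entry to 0.025, none of which had passed. The 9 called loci kept their direction under each of these scalings. A changed pseudocount cannot alter the sign of a ratio, so it was no check of direction. The q threshold of 0.01 left 7 of 8 regulators, 6 of 8 partners, 16 of 16 axon genes and 16 of 17 other cadherins called. The cause of these shifts was not tested. Without a spread between libraries, and with age and control genotype pooled, small differences such as those of single beta genes have no replicate check.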
